A study of Mus musculus with 17 samples.

Results

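The liver divides ammonia removal between its zones. Hepatocytes around the portal vein turn ammonia into urea, and those around the central vein bind what is left to glutamate to form glutamine. The 10 genes described here mark that division and were taken from a list of gene symbols, with every array probe carrying one of the symbols. They made up 10 of 19359 genes with a measurable probe and 18 probes of 34650 tested. The periportal genes were the urea cycle genes Cps1, Otc, Ass1, Asl, and Arg1 and the glutaminase gene Gls2, with 9 probes. The pericentral genes were Glul, Oat, Slc1a2, and Axin2, also with 9 probes.

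Cps1 and Otc encode the mitochondrial steps of the urea cycle, Ass1, Asl, and Arg1 the cytosolic steps, and Gls2 releases ammonia from glutamine. Glul encodes glutamine synthetase, Oat converts ornithine toward glutamate, and Slc1a2 carries glutamate into the cell. Pericentral expression depends on Wnt/beta-catenin signaling from the central vein, and Axin2 is a direct target and inhibitor of that pathway.

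Livers of 17 male mice were measured on 2-color Agilent arrays, 1 array per mouse. The chow group (n = 4) received chow for 3 months and a maltose gavage, and the 1B group (n = 4) the same chow and a gavage of ethanol at 5 g/kg. The HFD group (n = 4) received a high-fat diet with 60% of calories as fat for 3 months and a maltose gavage, and the HFD+1B group (n = 5) that diet and the ethanol gavage. Mice were killed 9 hours after gavage. All were C57BL/6N by the sample labels and C57BL/6J by the methods of the study, no genetic change was given for any group, and the age was not given in the sources used here.

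Each value is a log2 ratio of liver signal (Cy5) to a common reference RNA (Cy3), so levels can be compared between groups for 1 probe but not between genes. A gene was called higher or lower where limma, fitted over all probes, gave an adjusted p no greater than 0.05, and its brightest probe stood for it. Several comparisons share arrays: the chow arrays enter the comparisons of 1B, HFD, and HFD+1B with chow, and the HFD+1B arrays enter 3 comparisons. In whole liver, fewer cells of a zone and less RNA per cell cannot be told apart.

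Of the 10 genes, 9 gave a Cy5 signal well above background on all 17 arrays. Axin2 did so on 5 of 17 and was near background throughout. Spots marked as outliers by the scanner software were left out, which removed Cps1 on 7 of 17 arrays and Otc and Asl on 1 array each. The 9 hepatocyte markers tested of 10 were well above background on all arrays. Relative to chow, the mean log2 level of these markers ran from -0.39 to 0.03 among HFD mice. It ran from -0.09 to 0.21 for chow, 0.04 to 0.57 for 1B, and 0.13 to 0.55 for HFD+1B. Gene by gene, the median difference of HFD from chow was 0.26, opposite in sign to most of the HFD means. In that comparison 1 of the 9 was called lower and none higher. The 11 macrophage markers stood at 0.55 to 0.66 among HFD mice and 0.14 to 0.92 among HFD+1B mice, against -0.28 to 0.35 in chow and -0.13 to 0.12 in 1B. The 10 stellate cell markers stood at 0.54 to 0.82 among HFD mice and 0.13 to 1.15 among HFD+1B mice, against -0.24 to 0.14 in chow and 0.18 to 0.27 in 1B. The 8 endothelial markers stood at 0.23 to 0.43 among HFD mice, 0.14 to 0.25 in 1B, and 0.08 to 0.36 in HFD+1B, against -0.07 to 0.11 in chow. They did not move together: in HFD+1B 2 were called higher and 3 lower against chow, and 2 higher and 4 lower against HFD. The 5 erythroid markers tested of 6 ran from 0.10 to 0.63 in HFD+1B and from -0.08 to 0.45 in HFD, against -0.14 to 0.14 in chow and -0.41 to 0.10 in 1B. The 10 neutrophil markers ran from -0.24 to 0.33 over all groups, with overlapping ranges, and in HFD+1B against chow 2 were called higher and 1 lower. The 5 ribosomal RNA probes averaged -3.81 to -2.15 in HFD and -1.16 to 1.12 in the other groups on the log2 ratio scale. The 6 cholangiocyte markers stood at 0.21 to 0.88 in HFD+1B and between -0.21 and 0.17 in the other groups. Gene by gene, 1 of the 6 was called higher and none lower in HFD+1B against chow. In HFD against chow 2 of the 6 were called lower and none higher. Of 5 markers of astrocytes and brain, another tissue with Glul and Slc1a2, 4 were tested, at -0.00 to 0.29 in HFD+1B and -0.45 to 0.30 elsewhere. The median Cy5 signal per array ran from 63 to 98 in HFD and from 99 to 138 in chow. It ran from 69 to 134 in 1B and from 90 to 158 in HFD+1B. The part of these marker, ribosomal RNA, and signal shifts in the results below was not tested.

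At most 3 of the 10 genes were called in any 1 comparison. Compared with chow, none was called in 1B, where 4.13% of all genes were called in either direction and 2 of the 10 genes had an unadjusted p of 0.05 or less. Glul alone, higher, was called in HFD, against 11.0% of all genes. With arrays centered on the median in place of loess, Glul was not called there and Otc, Ass1, Gls2, and Slc1a2 were lower, by -0.73, -0.91, -0.95, and -0.84. Slc1a2 and Otc, both lower, and Arg1, higher and just inside the threshold, were called in HFD+1B, against 16.3% of all genes. Compared with HFD, Arg1 was higher and Axin2 lower in HFD+1B, against 19.4% of all genes. Axin2 was near background and was tested only because its HFD arrays cleared background. Compared with 1B, only Asl was lower in HFD+1B, against 11.4%. No gene was called for the interaction, the ethanol effect on HFD minus the ethanol effect on chow, against 4.40% of all genes, and no unadjusted p reached 0.05.

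**Figure D1:**
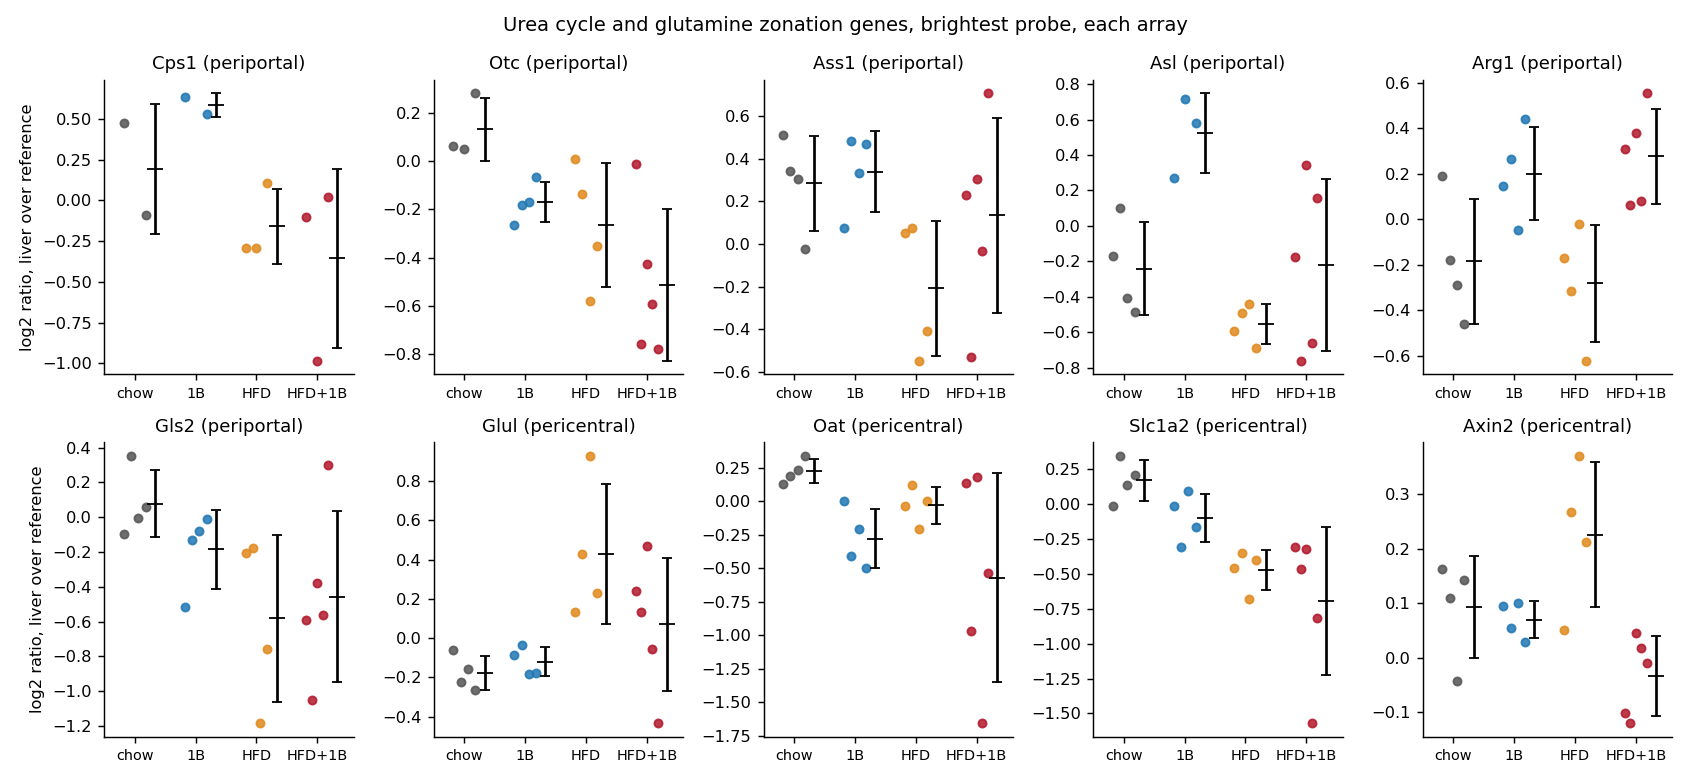
Log2 ratio of liver to reference for the brightest probe of each gene. Each point is 1 mouse, and the black bar gives the group mean with its SD, with 4 mice in chow, 1B, and HFD and 5 in HFD+1B, and fewer points where a spot was left out. Each panel has its own vertical scale. All 5 HFD+1B values of Slc1a2 lie below all 4 chow values, and Axin2 spans the narrowest range.

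The pericentral glutamate transporter gene Slc1a2 gave the largest called difference of the 10 genes. Its 4 chow values were -0.02, 0.34, 0.14, and 0.20, and its 4 values in 1B were -0.02, -0.31, 0.09, and -0.17. Its 4 HFD values were -0.46, -0.35, -0.68, and -0.41, and its 5 HFD+1B values were -0.31, -0.46, -0.32, -1.57, and -0.82. All HFD and HFD+1B mice lay below all chow mice, and mouse 4 of HFD+1B was the lowest of all. Slc1a2 was lower in HFD+1B than in chow by -0.86 (SE 0.19, 95% interval -1.27 to -0.45, adjusted p = 0.00509), or 1.82-fold. For Cy5 alone, Slc1a2 differed by -0.83 and was not called (adjusted p = 0.143). In HFD it differed from chow by -0.64 (SE 0.20, adjusted p = 0.0555), and it passed the threshold without mouse 1 of HFD+1B (adjusted p = 0.0455) or without mouse 4 of HFD+1B (adjusted p = 0.00430), since all groups share 1 estimate of the spread. HFD+1B minus HFD was -0.22 with an interval of -0.63 to 0.19, and HFD+1B minus 1B was -0.59 (adjusted p = 0.0620).

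The other 3 probes of Slc1a2 were also lower in HFD+1B than in chow, with no overlap between the groups. Their differences were -1.04, -1.09, and -0.63, with adjusted p values of 0.00639, 0.000599, and 0.0117. The probes parted in HFD: probes 3 and 4 were lower than in chow by -0.73 and -0.57 (adjusted p = 0.0256 and 0.0398), whereas probe 2 differed by -0.13 (adjusted p = 0.793). Probe 2 instead separated HFD+1B from HFD, by -0.90 (adjusted p = 0.0150). Pearson correlations between the probes were 0.56 to 0.95 over 17 arrays. Of the genes compared with it over all 17 arrays (15365), those most like Slc1a2 were Il1rap (r = 0.90), Ugt2a3 (r = 0.89), and Cyp2c39 (r = 0.88), which encode a receptor subunit for interleukin-1, a glucuronosyltransferase, and a cytochrome P450.

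The promoters of Slc1a2 and Otc, the members that fell in HFD+1B, are shown as the 250 bases before the start of the RefSeq gene (GRCm38.p6), with that of Glul beside them as the classic pericentral gene. Capitals mark matches on either strand to ATCAAAG, the core letters bound by TCF/LEF factors of the Wnt pathway, or to TTGCNNAA, letters bound by C/EBP factors. The motifs do not overlap.
Slc1a2, chr2:102706188-102706437, plus strand: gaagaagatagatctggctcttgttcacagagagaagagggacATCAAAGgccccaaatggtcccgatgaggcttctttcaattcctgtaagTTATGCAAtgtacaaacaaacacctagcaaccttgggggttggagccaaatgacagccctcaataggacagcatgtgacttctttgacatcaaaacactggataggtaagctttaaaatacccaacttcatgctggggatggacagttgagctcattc
Otc, chrX:10252055-10252304, plus strand: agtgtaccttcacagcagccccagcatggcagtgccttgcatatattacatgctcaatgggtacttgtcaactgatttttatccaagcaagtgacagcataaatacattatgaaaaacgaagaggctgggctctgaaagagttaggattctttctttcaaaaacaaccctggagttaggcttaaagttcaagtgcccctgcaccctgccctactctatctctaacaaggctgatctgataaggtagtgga
Glul, chr1:153899679-153899928, plus strand: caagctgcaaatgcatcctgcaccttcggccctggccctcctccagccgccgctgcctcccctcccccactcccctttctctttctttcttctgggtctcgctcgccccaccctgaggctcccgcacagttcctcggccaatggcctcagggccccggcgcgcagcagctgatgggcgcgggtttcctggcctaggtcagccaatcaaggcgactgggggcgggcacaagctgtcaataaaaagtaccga
Of the 10 genes, 6 had a promoter in the table, and Slc1a2 alone held a match to ATCAAAG, on the plus strand, and to TTGCNNAA, on the minus strand. Of 32851 promoters, 3.21% held ATCAAAG and 9.56% held TTGCNNAA. A match describes the letters in this window and is not evidence of binding.

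Otc, the periportal gene for the ornithine transcarbamylase step, was lower in HFD+1B than in chow. Its 3 chow values, with mouse 1 missing, were 0.06, 0.05, and 0.28, and the 1B values were -0.26, -0.18, -0.17, and -0.06. The HFD values were 0.01, -0.13, -0.58, and -0.35, and the HFD+1B values were -0.01, -0.76, -0.43, -0.59, and -0.78. On this brightest probe, every mouse of the other 3 groups lay below every chow mouse with a value. The difference for HFD+1B was -0.65 (SE 0.16, adjusted p = 0.00998), or 1.56-fold lower, and without chow mouse 4 it was -0.57 (adjusted p = 0.0590). The differences for HFD and 1B were -0.40 (adjusted p = 0.142) and -0.30 (adjusted p = 0.472). Probe 2 of Otc gave -0.69 for HFD+1B (adjusted p = 0.00706), and probe 3 gave -0.17 (adjusted p = 0.728). HFD+1B overlapped with chow on both, and on probe 2 it reached 0.61 against a lowest chow value of 0.52.

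**Figure D2:**
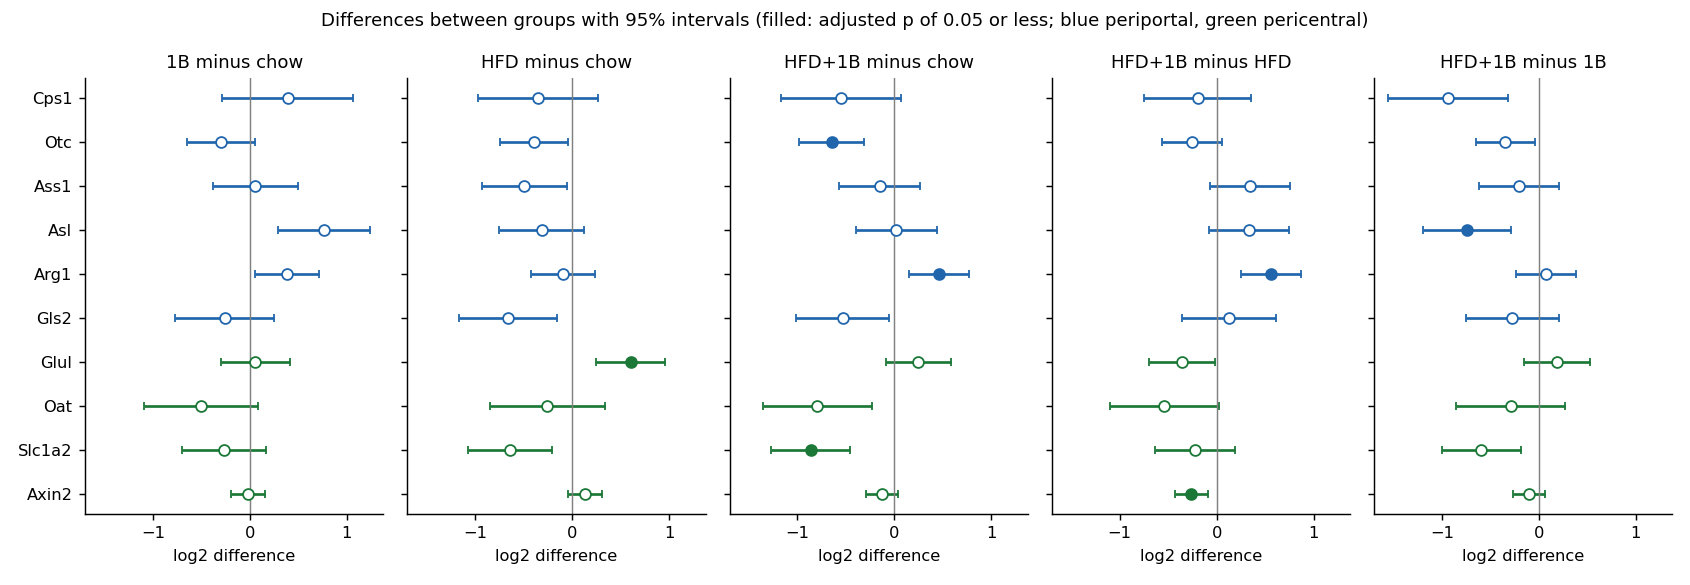
Differences between groups on the log2 scale for the brightest probe of each gene, with 95% intervals from the fit. Blue marks periportal and green pericentral genes, and filled points have an adjusted p of 0.05 or less. Filled points are Glul in HFD against chow, Otc, Arg1, and Slc1a2 in HFD+1B against chow, Arg1 and Axin2 in HFD+1B against HFD, and Asl in HFD+1B against 1B.

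Arg1, which encodes the arginase that releases urea, set HFD+1B apart from HFD, with higher levels in HFD+1B. Its chow values were 0.19, -0.18, -0.29, and -0.46, and its HFD values were -0.17, -0.32, -0.02, and -0.62. Its 1B values were 0.15, 0.26, -0.05, and 0.44, and its HFD+1B values were 0.31, 0.06, 0.38, 0.08, and 0.55. All 5 HFD+1B mice lay above all 4 HFD mice, whereas the HFD+1B and chow ranges overlapped through chow mouse 1. Relative to HFD, Arg1 was raised in HFD+1B by 0.56 (SE 0.15, adjusted p = 0.0145), or 1.47-fold, and without HFD mouse 4 by 0.45 (adjusted p = 0.0642). The difference of HFD+1B from chow, 0.46 (SE 0.15, adjusted p = 0.0436), lay just inside the threshold and passed in 15 of 34 alternatives. That call was lost without any single one of chow mice 2, 3, and 4, 1B mice 1 and 2, HFD mouse 2, and HFD+1B mice 1, 3, and 5, with adjusted p values from 0.0510 to 0.157. It was 0.40 (adjusted p = 0.0766) with median centering, 0.46 (adjusted p = 0.0833) in the authors' table, 0.46 (adjusted p = 0.0528) without the filter on dim probes, 0.31 (adjusted p = 0.532) for Cy5 alone, and 0.39 (adjusted p = 0.0899) with the replicate number as a block. The difference between 1B and chow was 0.39 (adjusted p = 0.243).

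Asl, the argininosuccinate lyase gene, was highest in 1B. Its 1B values, with mouse 4 missing, were 0.27, 0.72, and 0.58, against -0.17, 0.10, -0.41, and -0.49 in chow. The HFD values were -0.59, -0.49, -0.44, and -0.69, and the HFD+1B values were -0.17, -0.76, 0.34, -0.66, and 0.15. The 1B values lay above all chow values, and HFD+1B mouse 3 reached into the 1B range. Asl was lower in HFD+1B than in 1B by -0.74 (SE 0.21, adjusted p = 0.0356), or 1.67-fold, but the call was lost without 1B mouse 2 or 3 or without HFD+1B mouse 2 or 4, with adjusted p values from 0.0733 to 0.142. The difference of 1B from chow was 0.76 (SE 0.22, adjusted p = 0.0751), and the threshold was passed without HFD+1B mouse 2 (adjusted p = 0.0450) or mouse 3 (adjusted p = 0.0424). With the slide as a block it was 0.80 (adjusted p = 0.0304), and it passed too in the authors' table (0.87, adjusted p = 0.0390) and with array weights (0.89, adjusted p = 0.0102).

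Cps1 and Ass1, the genes of the first mitochondrial and the first cytosolic step, were not called in any comparison, though the difference of Cps1 between HFD+1B and 1B passed in several alternatives. Cps1 had 2 chow values, 0.48 and -0.09, and 2 values from 1B mice, 0.64 and 0.53. Its 3 HFD values were -0.29, -0.29, and 0.11, and its 3 HFD+1B values -0.10, -0.98, and 0.02. It differed between HFD+1B and 1B by -0.94 (SE 0.28, adjusted p = 0.0611), with no overlap of the 2 groups. With the slide as a block that difference was -1.05 (adjusted p = 0.0186), and it also passed in the authors' table (-0.99, adjusted p = 0.00936), with the replicate number as a block (-1.25, adjusted p = 0.0454), and with array weights (-0.99, adjusted p = 0.0357). With the outlier-marked spots kept, it was -0.99 (adjusted p = 0.00507) and the difference from chow was -0.68 (adjusted p = 0.0328). Ass1 gave its lowest group mean in HFD, -0.21 ± 0.32 (SD, n = 4), against 0.29 ± 0.22 (SD, n = 4) in chow. The difference was -0.49 (adjusted p = 0.144), and the second Ass1 probe gave -0.46 (adjusted p = 0.136).

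Gls2, the liver-type glutaminase gene, had its lowest group means under the high-fat diet. Its chow values were -0.10, 0.35, -0.01, and 0.06 and its HFD values were -0.21, -0.18, -1.18, and -0.76, with no overlap. The 1B values were -0.52, -0.13, -0.08, and -0.01, and the HFD+1B values were -0.59, -1.05, -0.38, -0.56, and 0.30. HFD+1B mouse 5 was the highest of its group and lay within the chow range. The differences from chow were -0.66 for HFD (SE 0.24, adjusted p = 0.0913) and -0.53 for HFD+1B (SE 0.23, adjusted p = 0.138), and neither passed. Without HFD+1B mouse 5 they were -0.66 (adjusted p = 0.0457) and -0.72 (adjusted p = 0.0223), and with the replicate number as a block HFD+1B also passed, at -0.72 (adjusted p = 0.0309). The genes most like Gls2 over 17 arrays were Cant1 (r = 0.86), Etnppl (r = 0.85), and Notum (r = 0.84), which encode a nucleotidase, a phospho-lyase of ethanolamine phosphate, and a secreted Wnt inhibitor.

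Glul, the glutamine synthetase gene, gave answers that depended on the probe. On the brightest probe the chow values were -0.06, -0.23, -0.16, and -0.26 and the HFD values were 0.13, 0.43, 0.93, and 0.23. The 1B values were -0.08, -0.03, -0.18, and -0.18, and the HFD+1B values were 0.24, 0.13, 0.47, -0.05, and -0.43. All HFD mice lay above all chow mice, and HFD+1B spanned both ranges. Glul was higher in HFD than in chow by 0.61 (SE 0.17, adjusted p = 0.0310), or 1.52-fold. The call was lost without any single one of the 4 chow mice and HFD mice 2 and 3, with adjusted p values from 0.0505 to 0.111, and the difference was 0.25 (adjusted p = 0.534) when arrays were centered on the median in place of loess.

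The second brightest Glul probe did not show the rise in HFD. Its chow values were -0.27, -0.31, -0.42, and -0.15 and its HFD values were -0.55, -0.26, -0.77, and -0.82, a difference of -0.31 (adjusted p = 0.384). Its HFD+1B values were 0.57, 0.38, 0.00, 0.15, and -0.79, higher than in HFD by 0.66 (adjusted p = 0.0301), whereas the brightest probe gave -0.36 for the same comparison (adjusted p = 0.134). The dimmest probe gave 0.55 for HFD against chow (adjusted p = 0.196) and -0.32 for HFD+1B against HFD (adjusted p = 0.404). Pearson correlations between the 3 probes over 17 arrays were -0.04, 0.18, and -0.33. The direction of Glul is therefore given per probe only. The first 30 of the 60 bases of each probe, as deposited, differ between the probes and are shown because the probes gave different results.
Glul probe 1, A_52_P101279: gtaactgccaggcagcgcttataaatcaac
Glul probe 2, A_52_P143866: ttccgcaaagaccccaacaagctggtgcta
Glul probe 3, A_51_P441798: gctggtttcccctttagaaataacagctct

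**Figure D3:**
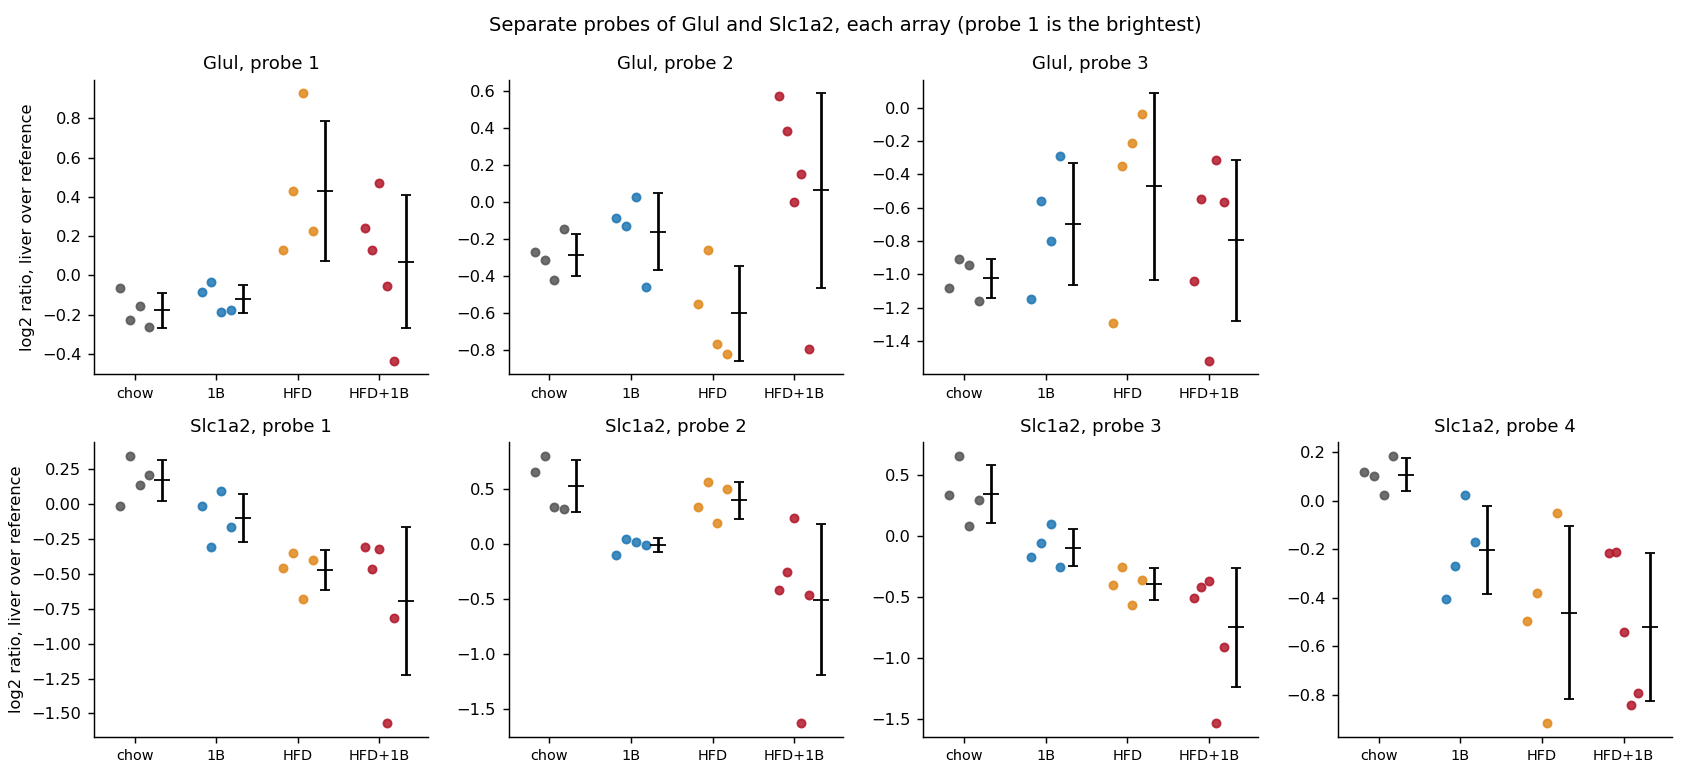
Log2 ratio of liver to reference for the 3 probes of Glul (upper row) and the 4 probes of Slc1a2 (lower row), each panel with its own vertical scale. Each point is 1 mouse, and the black bar gives the group mean with its SD. HFD lies above chow on Glul probe 1 and mostly below it on probe 2, whereas HFD+1B lies below chow on all Slc1a2 probes.

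Oat, the ornithine aminotransferase gene, spread most in HFD+1B. Its chow values were 0.13, 0.19, 0.24, and 0.34, its 1B values -0.00, -0.41, -0.20, and -0.50, and its HFD values -0.04, 0.13, -0.21, and 0.00. The HFD+1B values were 0.14, -0.97, 0.18, -1.66, and -0.54, so that mice 2, 4, and 5 lay below every chow mouse and mice 1 and 3 within the chow range. The difference from chow was -0.79 (SE 0.27, 95% interval -1.35 to -0.23, adjusted p = 0.0530). It passed without HFD+1B mouse 1 (-0.97, adjusted p = 0.0143) or mouse 3 (-0.98, adjusted p = 0.0135).

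Axin2, the Wnt target gene, was measured near background. Background was cleared by the Cy5 signal on 3 of 4 HFD arrays, 1 of 5 HFD+1B arrays, 1 of 4 1B arrays, and none of the chow arrays. The HFD values were 0.05, 0.27, 0.37, and 0.21, and the HFD+1B values were -0.10, -0.12, 0.05, 0.02, and -0.01, so that the groups met only in value at 0.05. Chow gave 0.16, 0.11, -0.04, and 0.14, and 1B gave 0.09, 0.05, 0.10, and 0.03. The difference of HFD+1B from HFD was -0.26 (SE 0.08, adjusted p = 0.0298 in the limma fit). Axin2 passed the filter of 4 or more arrays above background only through its HFD arrays. The p-value is therefore not separate support for a difference from HFD. This call sets 1 HFD+1B array above background against 3 HFD arrays, and it was lost without HFD mouse 2, 3, or 4 or HFD+1B mouse 1 or 2, with adjusted p values from 0.0605 to 0.106. Since none of the chow arrays measured it, no fold against chow is given.

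The zones were then compared as the mean of the periportal and of the pericentral genes with a value, each gene relative to its chow mean. The mean of the 4 pericentral genes held a value for each gene in all mice, with Glul read from its brightest probe. It includes Axin2, which was near background and cleared it on none of the chow arrays. Its values, here and in the zone difference below, are thus relative to a chow level near background. Of the 17 mice, 7 lacked 1 or 2 of the 6 periportal genes. These means carry no test, since the genes were chosen with earlier results known. The periportal mean was -0.40 ± 0.16 (SD, n = 4) in HFD, -0.21 ± 0.34 (SD, n = 5) in HFD+1B, and 0.12 ± 0.14 (SD, n = 4) in 1B, against 0.00 ± 0.15 (SD, n = 4) in chow. All 4 HFD mice, at -0.58 to -0.25, lay below all 4 chow mice, at -0.14 to 0.15. The HFD arrays also had a lower median Cy5 signal than the chow arrays, whose part here was not tested. The pericentral mean was -0.04 ± 0.09 (SD, n = 4) in HFD, -0.18 ± 0.10 (SD, n = 4) in 1B, and -0.38 ± 0.37 (SD, n = 5) in HFD+1B, against 0.00 ± 0.03 (SD, n = 4) in chow. The HFD mean joins genes with opposite signs, since Glul was above and Slc1a2 below chow.

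The periportal minus pericentral difference, whose size in HFD depended on the Glul probe, was 0.00 ± 0.15 (SD, n = 4) in chow, 0.30 ± 0.22 (SD, n = 4) for 1B, -0.36 ± 0.20 (SD, n = 4) for HFD, and 0.18 ± 0.39 (SD, n = 5) for HFD+1B. The SD between mice, pooled over the groups, was 0.27, against differences from chow of 0.30 for 1B, -0.36 for HFD, and 0.17 for HFD+1B. With Glul read from its second brightest probe these were 0.28, -0.13, and 0.15. HFD+1B minus HFD was 0.53 on the brightest probe, 0.28 on the second, and 0.87 in the authors' table, and the HFD+1B mice ran from -0.28 to 0.64 and mouse 2 lay within the HFD range of -0.51 to -0.09. The median difference of the periportal genes from chow was -0.38 in HFD and -0.34 in HFD+1B, with a median of 0.00 over all genes tested in both comparisons. For the pericentral genes it was -0.06 in HFD and -0.46 in HFD+1B.

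**Figure D4:**
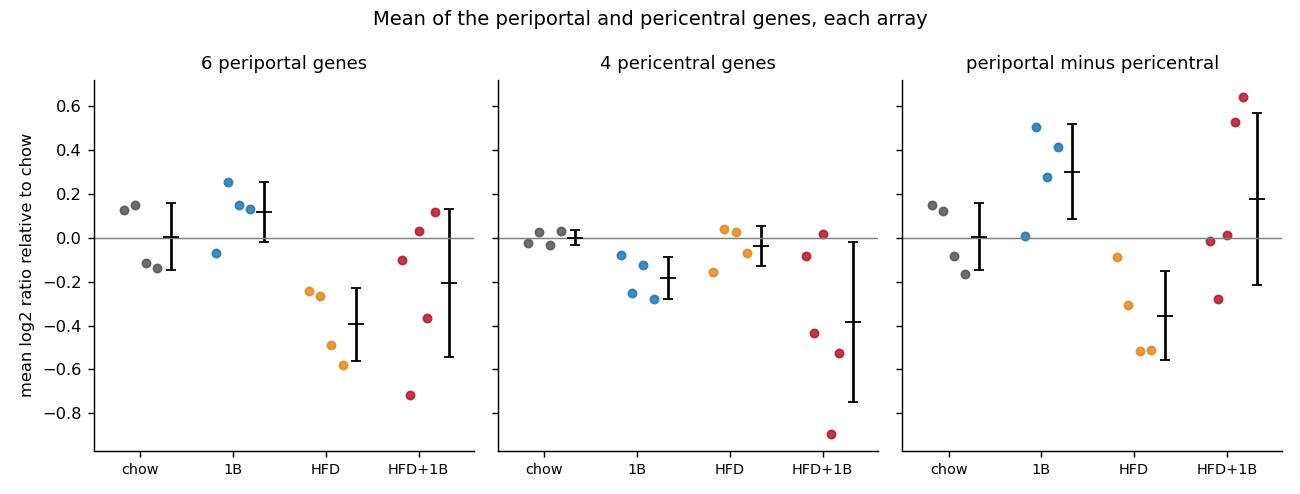
Mean log2 ratio of the periportal genes with a value (left, up to 6), of the 4 pericentral genes with Glul from its brightest probe (middle), and their difference (right), each gene relative to its chow mean. Each point is 1 mouse and the black bar gives the group mean with its SD. The periportal mean of all HFD mice lies below that of all chow mice, and HFD+1B spreads the most in all panels. The pericentral mean includes Axin2, which was near background.

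Group ranges that did not overlap were counted as well. Against chow, 5 of the 10 genes did not overlap in HFD (1 above, 4 below), where 19.4% of all genes did not overlap. In 1B 4 did not (2 above, 2 below), where the share was 12.0%. Some rested on fewer values: Cps1 in 1B on 2 against 2, Asl in 1B on 3 against 4, and Otc in 1B and HFD on 4 against 3. Fewer values overlap less often by chance, so these counts cannot be set directly against the shares. In HFD+1B 2 of the 10 genes did not overlap with chow, where the share was 15.6%, with Otc on 5 against 3 values. With HFD+1B set against HFD, Arg1 and Axin2 did not overlap (15.3% of all genes), the latter near background. With HFD+1B set against 1B only Cps1 did not (11.4%), on 3 against 2 values. Arrays of the same slide hold more than 1 group. For the genes called against chow, the direction on the brightest probe was read within slides. These are the same arrays, so this is not separate support. In HFD+1B it held for Slc1a2 on 4 of 4 slides (-1.16 to -0.29), for Otc on 3 of 3 (-0.84 to -0.71), and for Arg1 on 4 of 4 (0.12 to 0.84). For Glul in HFD it held on 3 of 3 (0.19 to 1.19), whereas the second brightest Glul probe gave -0.31 over all arrays.

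Other genes of ammonia, glutamine, and ornithine handling were described from a list of 31 genes, all tested. In HFD+1B against chow 6 were higher, 6 lower, and 19 not called, where 16.3% of all genes were called. Over the 34 alternatives run, 2 to 11 were higher and 2 to 7 lower. Among the higher genes, Got1, the cytosolic aspartate aminotransferase that supplies the urea cycle with aspartate, rose by 1.73 (SE 0.28, adjusted p = 0.000305). The neutral amino acid transporter genes Slc38a2 and Slc1a5 rose by 1.29 (adjusted p = 0.0156) and 0.92 (adjusted p = 0.00245), and Slc38a2 gave 1.16 (adjusted p = 0.0668) without chow mouse 2. Among the lower genes, Car5a, the mitochondrial carbonic anhydrase that supplies bicarbonate to Cps1, fell by 1.24 (SE 0.19, adjusted p = 0.000177). Nags, whose product makes the activator of Cps1, and Prodh, a proline oxidase gene, fell by 0.69 (adjusted p = 0.000306) and 1.06 (adjusted p = 0.00367).

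These genes split by group. Of all genes, 4.13% were called in 1B against chow, 11.0% in HFD against chow, and 11.4% in HFD+1B against 1B. Got1 averaged -1.33 ± 0.67 (SD, n = 4) in chow, -0.12 ± 0.31 (SD, n = 4) for 1B, -2.48 ± 0.33 (SD, n = 4) for HFD, and 0.39 ± 0.47 (SD, n = 5) for HFD+1B on the log2 ratio scale. All HFD+1B mice, at -0.19 or above, were higher than all HFD mice, at -2.15 or below, and the difference was 2.88 (SE 0.28, adjusted p = 8.00e-06). Slc25a15, the mitochondrial ornithine carrier of the urea cycle, also gave a higher level in HFD+1B than HFD, by 1.63 (adjusted p = 0.000672), as did Slc38a2, by 1.87 (adjusted p = 0.00384) with values on 2 of 4 HFD arrays. In 1B against chow 3 of the 31 were higher and 3 lower, among them Slc38a4, a hepatocyte amino acid transporter gene, which fell by 1.40 (adjusted p = 0.00431), and Glud1, the glutamate dehydrogenase gene, which fell by 0.53 (adjusted p = 0.00386). In HFD against chow 3 were higher and 3 lower, and Nags fell by 0.53 (adjusted p = 0.00755). The calls of Got1, Car5a, and Slc1a5 in 1B and of Got1, Got2, Sirt5, Odc1, and Slc38a5 in HFD were each lost without any one of 3 or more arrays. Relative to 1B, in HFD+1B 5 were higher and 2 lower, with Slc1a4, another neutral amino acid transporter gene, higher by 0.69 (adjusted p = 0.00505).

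Of 17 other periportal genes tested, in HFD+1B against chow 5 were higher and 3 lower, and over the alternatives 2 to 5 and 1 to 4. The higher genes included Sds, a serine dehydratase gene (2.10, adjusted p = 0.000474), and Tat, the tyrosine aminotransferase gene (1.43, adjusted p = 0.00819). The lower genes were Hal, the histidine ammonia-lyase gene (-1.41, adjusted p = 0.000783), Pigr (-0.89, adjusted p = 0.000134), and Cyp2f2 (-0.85, adjusted p = 0.000495). Pigr had values on 3 of 5 HFD+1B arrays. The median of the list was 0.06. Of all genes, 16.3% were called in HFD+1B against chow and 11.0% in HFD against chow. In HFD+1B against HFD 19.4% were called, and in HFD+1B against 1B 11.4%. In 1B against chow, where 4.13% of all genes were called, 4 were higher and 1 lower, with Sdsl 1.00 higher (adjusted p = 0.00922), and over the alternatives 1 to 4 and 0 to 2. Of these, the higher G6pc, the glucose-6-phosphatase gene, lost its call without any one of 8 arrays and the lower Ctsc, a cathepsin gene, without any one of 7, and median centering ended both (adjusted p = 0.0585 and 0.113). In HFD against chow 2 were higher and 3 lower, with Pigr at -0.65 (adjusted p = 0.00220). In HFD+1B against HFD 4 were higher and 2 lower, with Sds at 2.97 (adjusted p = 5.04e-05) and Tat at 2.79 (adjusted p = 0.000151). Tat had values on 3 of 4 HFD arrays. Relative to 1B, in HFD+1B 3 were higher and 4 lower, with Tat at 2.07 (adjusted p = 0.000926) and Cyp2f2 at -0.83 (adjusted p = 0.00126).

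Of 16 other pericentral genes tested, in HFD+1B against chow 1 was higher and 9 were lower, with a list median of -0.45, where 16.3% of all genes were called. Over the alternatives 1 to 2 were higher and 4 to 10 lower. Cyp1a2, a pericentral cytochrome P450 gene, differed by -2.68 (adjusted p = 4.29e-07), Cyp7a1, the rate-limiting enzyme gene of bile acid synthesis, by -2.11 (adjusted p = 2.33e-05), and Tbx3, a Wnt-dependent transcription factor gene, by -1.09 (adjusted p = 0.000874). The gene that rose was Slc13a3, a dicarboxylate carrier gene (1.31, adjusted p = 0.000109). Of all genes, 4.13% were called in 1B and 11.0% in HFD against chow. In HFD+1B against HFD 19.4% were called, and in HFD+1B against 1B 11.4%. None of the 16 was called in 1B, and in HFD 1 was higher and 2 lower, with Cyp1a2 at -2.39 (adjusted p = 1.38e-05) and Slc13a3 at 1.30 (adjusted p = 0.000660). Relative to HFD, none was higher in HFD+1B and 7 were lower (2 to 8 over the alternatives), with Cyp7a1 at -1.62 (adjusted p = 0.000259), Tbx3 at -1.22 (adjusted p = 0.000534), and Rnf43 at -0.95 (adjusted p = 0.00136). Relative to 1B, in HFD+1B 3 were higher and 4 lower, with Ahr, the aryl hydrocarbon receptor gene, higher by 0.90 (adjusted p = 0.00192).

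**Figure D5:**
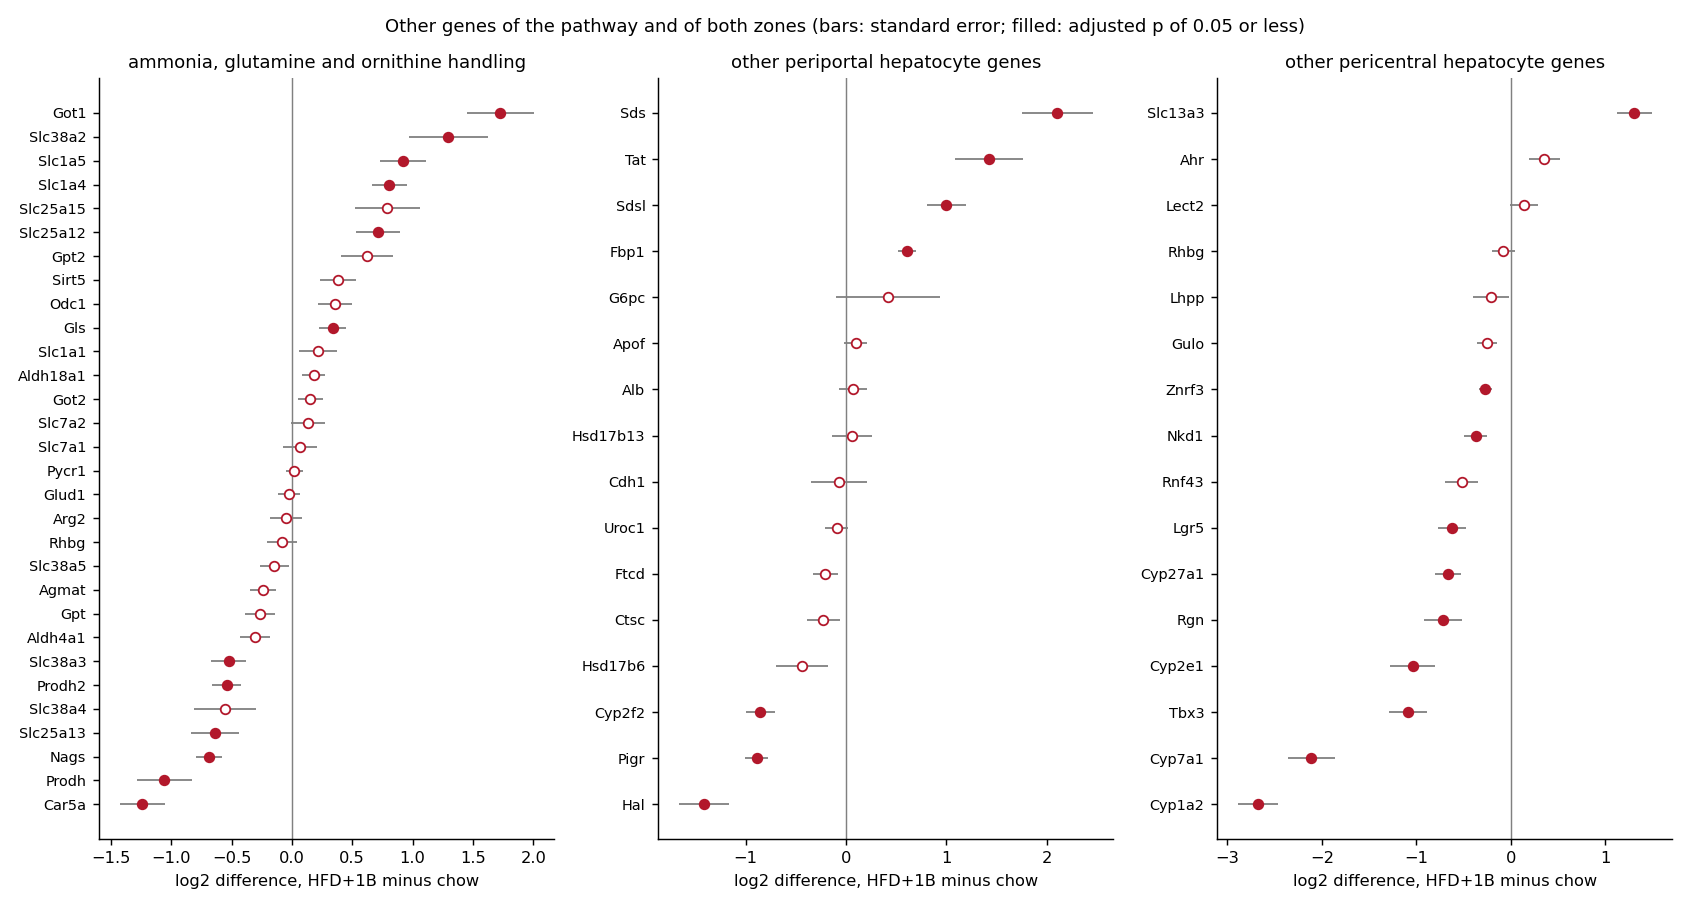
Log2 difference of HFD+1B from chow for 30 of the 31 genes of ammonia, glutamine, and ornithine handling, 16 of the 17 other periportal genes, and 16 other pericentral genes, on the brightest probe. Bars give the standard error and filled points have an adjusted p of 0.05 or less. Of the 16 pericentral genes, 9 are filled on the negative side, and the other lists hold filled points on both sides.

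The Wnt and R-spondin list, of which Axin2 is a readout, held 26 tested genes, some of them also in the pericentral list. Of all genes, 16.3% were called in HFD+1B against chow and 19.4% in HFD+1B against HFD. In HFD and in 1B against chow 11.0% and 4.13% were called. In HFD+1B against chow 2 were higher and 6 lower (0 to 4 and 1 to 8 over the alternatives), with Sp5, a Wnt target gene, at -0.63 (adjusted p = 0.00508) and Lgr5, an R-spondin receptor gene, at -0.62 (adjusted p = 0.00628). Relative to HFD, in HFD+1B 4 were higher and 5 lower. The co-receptor genes Lrp5 and Lrp6 were higher there, by 0.85 (adjusted p = 0.000300) and 0.63 (adjusted p = 0.00566), and the feedback inhibitor gene Nkd1 was lower, by -0.74 (adjusted p = 0.000687). In HFD against chow none was higher and 4 were lower, among them Axin1 (-1.08, adjusted p = 0.00671), Fzd4 (-1.01, adjusted p = 0.00479), and Lrp6 (-0.70, adjusted p = 0.00653), and none was called in 1B. Of 13 regulators of amino acid breakdown, in HFD+1B against chow 2 were higher and 4 lower, beside the same shares of all genes. Cebpb, a C/EBP factor gene, rose by 0.86 (adjusted p = 0.00897) and Creb3l3 by 0.52 (adjusted p = 0.00795), and Nr1h4, the bile acid receptor gene, was lower by -0.69 (adjusted p = 0.00123). Relative to HFD, 1 regulator was higher in HFD+1B and 3 lower, with Cebpb at 1.30 (adjusted p = 0.000544), and in 1B and in HFD against chow 1 was lower in each. The calls of Dkk3 and Lrp5 in the Wnt list and of Klf15 and Cebpa among the regulators, in HFD+1B against chow, were each lost without any one of 3 or more arrays.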

How the data were processed

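Liver RNA of 17 mice was hybridized on Agilent 44K arrays with a common reference RNA in Cy3 and the liver in Cy5, without dye swap, 1 array per mouse. The authors deposited scanner files with spot intensity values from Feature Extraction (version 11.5.1.1 in the file headers) and their series-wide log2 ratios, whose direction was checked against the processed signals of the same arrays (largest difference 2.7e-06). The reference is named in the labels as an assorted mouse RNA, and also as liver. The genome build was not given in the sources used here.

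Median spot signals were background-corrected with normexp (offset 50) and normalized within arrays by loess in limma 3.58.1 (R 4.3.3). Control spots and spots marked as outliers were left out, and spots of 1 probe were averaged. Of 41174 probes, 34650 were tested, those whose Cy5 signal cleared background on 4 or more arrays. Symbols came from the authors' series table, with 16 added by RefSeq accession. The fit held all 17 arrays and 4 groups, without covariates (13 residual degrees of freedom), and p-values were adjusted by Benjamini-Hochberg over all probes. The number of arrays limits the precision. The script was tested on simulated data.

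The members and the gene lists were chosen with earlier results of these data known. Named list genes were up to 3 per direction, list, and comparison with the largest called differences, and 2 list genes are counted but not reported here by name. The 3 genes most like a member, by Pearson r over all arrays, were taken for the periportal and the pericentral member that varied most between group means among those measured on all arrays. Replicate numbers were not taken as pairing the mice. Slides hold several groups and were tried as a block. Alternatives covered normalization, background, filters, channels, blocks, weights, omitted arrays, and the methods' analysis of variance with Tukey test, and 3 were added after the data were seen (without Cps1, without Axin2, and the second brightest Glul probe).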

Additional observations from a re-analysis of the deposited data

Results flagged for a closer look

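In none of the 77 groups of values of the 10 genes and the zone means did a single mouse stand apart by Dixon's test, where chance would give 3.85. This says little of Cps1, whose groups held only 2 or 3 values. Among the list genes a single mouse stood apart in 5 of 191 groups, where chance would give 9.55. The gap as a share of the group's range was 0.893 for Got2 in HFD mouse 3 (highest), 0.861 for Nags in 1B mouse 4 (lowest), 0.833 for Sdsl in 1B mouse 4 (highest), 0.869 for Sdsl in HFD mouse 3 (highest), and 0.712 for Sds in HFD+1B mouse 2 (lowest).

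None of the 10 genes was called by the interaction term of the limma fit, but 12 genes of the lists were, where 4.40% of all genes were called. A difference between diets in the 10 genes is not excluded, with 95% intervals such as -1.46 to 0.29 for Cps1 and -0.31 to 1.09 for Gls2. Glul gave -0.42 on its brightest probe and 0.54 on its second. The effect of ethanol was more positive on HFD than on chow for Tat (3.44, adjusted p = 0.00296), Sds (2.46, adjusted p = 0.0152), Cebpb (2.11, adjusted p = 0.00240), Slc38a2 (1.88, adjusted p = 0.0497), Got1 (1.66, adjusted p = 0.0287), Lrp6 (0.97, adjusted p = 0.0166), and Glud1 (0.66, adjusted p = 0.0138). It was more negative for Cyp7a1 (-1.77, adjusted p = 0.0125), Tbx3 (-1.54, adjusted p = 0.00933), Rnf43 (-0.92, adjusted p = 0.0484), Apof (-0.87, adjusted p = 0.00975), and Nr1h4 (-0.87, adjusted p = 0.0211). Some of these rested on fewer values, among them Tat and Nr1h4 on 3 of 4 HFD arrays and Slc38a2 on 2 of 4. Leaving out single arrays ended the call for Got1 (chow 1, 1B 1, 1B 2, HFD 3, or HFD 4), for Nr1h4 (HFD 4), and, with any of 13 and 15 arrays, for Rnf43 and Slc38a2. Median centering ended it for Apof, Nr1h4, and Rnf43.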

How the results depend on the processing

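Counts below are of the 10 genes called. In 1B against chow the count was 0, and became 1 with the authors' table, the slide block, outlier spots kept, array weights, or the unadjusted Tukey test, and 2 with only the groups compared. In HFD against chow it was 1, and became 4 with median centering, 2 with probes well above background on all 17 arrays, only the groups compared, or array weights, and 0 with the mean over probes, the fold rule of 2, the adjusted Tukey test, or the second Glul probe. In HFD+1B against chow it was 3, and became 1 with Cy5 alone and 0 with the fold rule or the adjusted Tukey test. Cy5 alone left Otc, and median centering left Otc and Slc1a2. Arg1 also dropped out with the authors' table, a normexp offset of 10, no filter on dim probes, only the groups compared, or the unadjusted Tukey test. Oat was added with no background subtraction, that offset, all 17 arrays required, array weights, or the mean over probes. Cps1 was added with the authors' table or outlier spots kept. In HFD+1B against HFD the count was 2, and became 4 with median centering. It became 1 with all 17 arrays required or only the groups compared, and 0 with Cy5 alone, the fold rule, or the adjusted Tukey test. In HFD+1B against 1B it was 1, and became 2 with the authors' table, all 17 arrays required, the slide block, the replicate block, or outlier spots kept, 3 with array weights, and 0 with Cy5 alone, only the groups compared, the fold rule, or the adjusted Tukey test. The cause was not tested.

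On the second brightest probe Glul reversed, to -0.31 in HFD against chow and 0.66 in HFD+1B against HFD. The periportal minus pericentral difference of HFD+1B from HFD was 0.875 in the authors' table. Leaving out 1 array gave 0 to 1, 0 to 2, 1 to 3, 0 to 2, and 0 to 3 called genes in these 5 comparisons and 0 for the interaction. It gave zone differences of 0.226 to 0.393, -0.450 to -0.308, 0.0555 to 0.286, 0.416 to 0.647, and -0.240 to -0.00876, and 0.121 to 0.352 for the interaction.

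With the replicate number as a block the counts were 0, 1, 3, 2, 2, and 0. Arg1 was no longer called and Gls2 was in HFD+1B against chow, and Cps1 was added in HFD+1B against 1B. Same-numbered mice correlated at -0.13 to 0.48 (median 0.18) over 24 pairs, 16 of them over 0.1, against a median of -0.05 over 84 pairs of different numbers, 19 of them over 0.1. The numbers partly followed the slides: number 1 of every group was on slide 1, and number 2 of chow, 1B, and HFD on slide 2. The part of the slide in these correlations was not tested. The labels give the numbers no meaning and not every pair was over 0.1, so they were not taken as pairing. Median centering moved the share of called probes that were higher from 38.8% to 14.3% in HFD against chow, 55.3% to 86.5% in HFD+1B against HFD, 52.7% to 65.7% in HFD+1B against chow, 53.0% to 73.0% in HFD+1B against 1B, and 61.0% to 91.1% in the interaction. Axin2 near background and Cps1 on 10 arrays limit what can be said of both.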
